A study of Mus musculus with 12 samples.

Results

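The genes described here encode the proteins of the mitochondrial ribosome, chosen from the deposited table by symbol (Mrpl or Mrps followed by a number). The rule gave 80 of 34193 rows: 47 genes named Mrpl, 29 named Mrps and 4 pseudogenes (Mrpl23-ps1, Mrpl48-ps, Mrps36-ps1 and Mrps36-ps2). The samples are cerebral cortex of mice aged 8 weeks, from which total RNA was sequenced once rRNA had been depleted. The conditional knockout group (cKO, 6 libraries) was Nsd1 flx/flx; Nestin-cre +/-, and the control group (6 libraries) was Nsd1 flx/flx; Nestin-cre -/-. All mice therefore carried the floxed Nsd1 alleles, and no Cre-carrying mice with unmodified Nsd1 were analysed here. Nestin-Cre is active in the neural lineage, so vascular and microglial cells of the cortex would be expected to keep Nsd1. NSD1 is a methyltransferase for lysine residues of histone H3. No animal is identified in the labels, and the p-values below therefore reflect only how these 12 samples varied.

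Mitochondrial ribosomes translate the few mRNAs of mitochondrial DNA, which encode core subunits of the respiratory chain and of ATP synthase. Their ribosomal RNAs come from mitochondrial DNA (mt-Rnr1 for the small subunit, mt-Rnr2 for the large). Every protein of the particle is encoded in the nucleus, made by cytosolic ribosomes and imported. Part of the proteins have bacterial homologues and the rest were acquired by mitochondria. Neurons depend heavily on oxidative phosphorylation, and human variants in several of these genes cause encephalopathy, cardiomyopathy or hearing loss.

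The promoters of these genes are given first, since several of them share short sequence elements and some are shared with a neighbouring gene. RefSeq windows of 300 bases (250 before to 50 after the annotated start, GRCm38.p6) were matched by symbol for 67 of the 76 tested members, with 73 windows in all. On both strands, the core letters of an ETS factor element, CCGGAAG, stood in 24 of these windows (32.9%), against 8.86% of all 32851 windows and 15.0% of the windows of tested genes. The NRF1 letters (GCGCA and GCGC with 1 base of any kind between them) stood in 12 windows (16.4%), against 4.60% of all windows and 8.94% of those of tested genes. The YY1 letters AANATGGCG stood in 10 windows (13.7%), against 2.38% and 4.36%. At least 1 of the 3 was present in 40 of the 67 members, a count for which the share over other genes was not taken. A match is a description of the letters in the window and says nothing of binding. The windows of 4 members follow, 5′ to 3′ on the gene's strand, with matches to these letters, on either strand, in capitals and all other bases in lower case. Mrpl52 is shown as a member near the low end of the fold changes, with 2 ETS matches. Mrps12 and Mrps11 are shown for starts that face those of Sars2 and Mrpl46. Mrps6 is shown as the member with the highest fold change, with no match to any of the 3 motifs.
Mrpl52, chr14:54426659-54426958, plus strand: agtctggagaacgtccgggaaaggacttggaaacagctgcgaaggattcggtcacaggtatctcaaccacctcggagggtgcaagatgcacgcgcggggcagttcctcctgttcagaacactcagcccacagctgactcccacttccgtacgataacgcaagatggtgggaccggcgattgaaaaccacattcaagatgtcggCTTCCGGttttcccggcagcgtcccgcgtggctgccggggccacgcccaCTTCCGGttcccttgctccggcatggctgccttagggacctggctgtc
Mrps12, chr7:28741772-28742071, minus strand: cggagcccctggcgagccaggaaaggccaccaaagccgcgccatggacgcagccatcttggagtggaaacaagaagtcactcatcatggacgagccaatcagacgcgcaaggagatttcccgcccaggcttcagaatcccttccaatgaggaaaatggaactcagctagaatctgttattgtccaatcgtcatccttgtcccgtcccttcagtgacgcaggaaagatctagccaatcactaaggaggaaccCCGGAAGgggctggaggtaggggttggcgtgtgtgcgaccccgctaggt
Mrps11, chr7:78782881-78783180, plus strand: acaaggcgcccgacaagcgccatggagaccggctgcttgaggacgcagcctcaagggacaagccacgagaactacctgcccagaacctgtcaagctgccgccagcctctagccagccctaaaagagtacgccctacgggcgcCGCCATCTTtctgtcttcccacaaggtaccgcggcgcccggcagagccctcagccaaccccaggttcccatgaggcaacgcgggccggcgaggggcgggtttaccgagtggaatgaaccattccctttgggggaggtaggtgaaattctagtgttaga
Mrps6, chr16:92058086-92058385, plus strand: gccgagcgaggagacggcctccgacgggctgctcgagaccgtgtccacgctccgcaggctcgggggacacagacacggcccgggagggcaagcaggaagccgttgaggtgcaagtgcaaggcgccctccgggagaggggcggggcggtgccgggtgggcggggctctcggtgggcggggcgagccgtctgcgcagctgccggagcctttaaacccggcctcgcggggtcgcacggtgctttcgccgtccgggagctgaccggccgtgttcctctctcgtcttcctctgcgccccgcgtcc

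In the whole series, 10.5 to 27.0 M reads per library fell on genes, and 3 reads corresponded to 1.98 to 5.64 normalised reads. Library numbers follow the column names. The sum over 4 Y-linked genes exceeded 100 normalised reads in libraries 1 to 3 of each genotype but not in libraries 4 to 6. In 8 of 12 columns this contradicts the sex given for the sample with that number. Columns were therefore assigned to a genotype only, and this split was a term of the model. Control libraries 4 and 5 stood apart: mt-Rnr1 and mt-Rnr2 took 14.2% and 11.5% of their reads, against 1.46% to 6.00% in the other 10 libraries. They also held Xist at 15020 and 11391 normalised reads, against 5391 to 5997 in the 4 other libraries without Y-linked reads. Nsd1, the targeted gene, averaged 3251 ± 299 normalised reads in the cKO and 4235 ± 850 in the controls (SD, n = 6 each). Its limma adjusted p was 0.383 at a log2 fold change of -0.36. These values cover the whole gene, so they include reads from outside any deleted part. Cortical markers were strong in each group: the summed level of Slc17a7, Neurod6 and Tbr1 was 29391 to 34074 normalised reads in the cKO and 25086 to 38047 in the controls. Choroid plexus markers (Ttr, Kl and Clic6) summed to 74.1 to 111 in the cKO and 82.7 to 116 in the controls. The haemoglobin genes Hbb-b1 and Hba-a1 summed to 661 to 1363 in the cKO and 763 to 2989 in the controls, with the highest value in control library 5. Oligodendrocyte markers (Mbp, Mog and Mag) summed to 30635, 34462 and 47002 in the cKO as the lowest, median and highest, against 31338, 46864 and 66019 in the controls, with the highest value in control library 4. The part of these cell types in the results below was not tested. In bulk cortex, fewer cells of a type and less RNA per cell cannot be told apart.

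No mitochondrial ribosomal protein gene passed the test between cKO and control cortex, but 69 of 76 had a fitted log2 fold change below 0. The median was -0.17, a level 11.3% lower in the cKO, and the values ran from -0.52 for Mrps16 to 0.19 for Mrps6. Over all 14397 genes tested, 50.1% lay below 0 and the median was -0.00069. The test was limma on log2(normalised reads + 1), and its smallest adjusted p among the members was 0.368, for Mrps10. Of all tested genes, 0.834% were called at an adjusted p under 0.05, 0.764% higher and 0.0695% lower in the cKO. At an unadjusted p under 0.05, 19 members (25.0%) were lower in the cKO and 0 higher, against 5.13% of all tested genes lower, 4.61% higher and 9.73% in either direction. edgeR on the recovered reads called 0 members (0.827% of all genes), with 19 at an unadjusted p under 0.05 (9.89% of all genes). DESeq2 called 0 (1.17% of all genes), with 19 at an unadjusted p under 0.05 (9.97% of all genes). The authors' deposited table gives a fold change for 76 members, 69 of them below 0 with a median of -0.18, and its smallest adjusted p among them is 0.280, where 0.906% of all its genes lie under 0.05. A log2 fold change below -0.30 was found for 18 members (23.7%), against 7.58% of all tested genes. In 0 of the 76 were all cKO libraries on the same side of all control libraries, against 1.01% of all tested genes. The bounds of the 95% intervals lay a median of 0.25 from the estimate on the log2 scale, and 19 of them lay wholly below 0. A difference of the size of the median was thus smaller than the precision for a typical single gene.

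**Figure D1:**
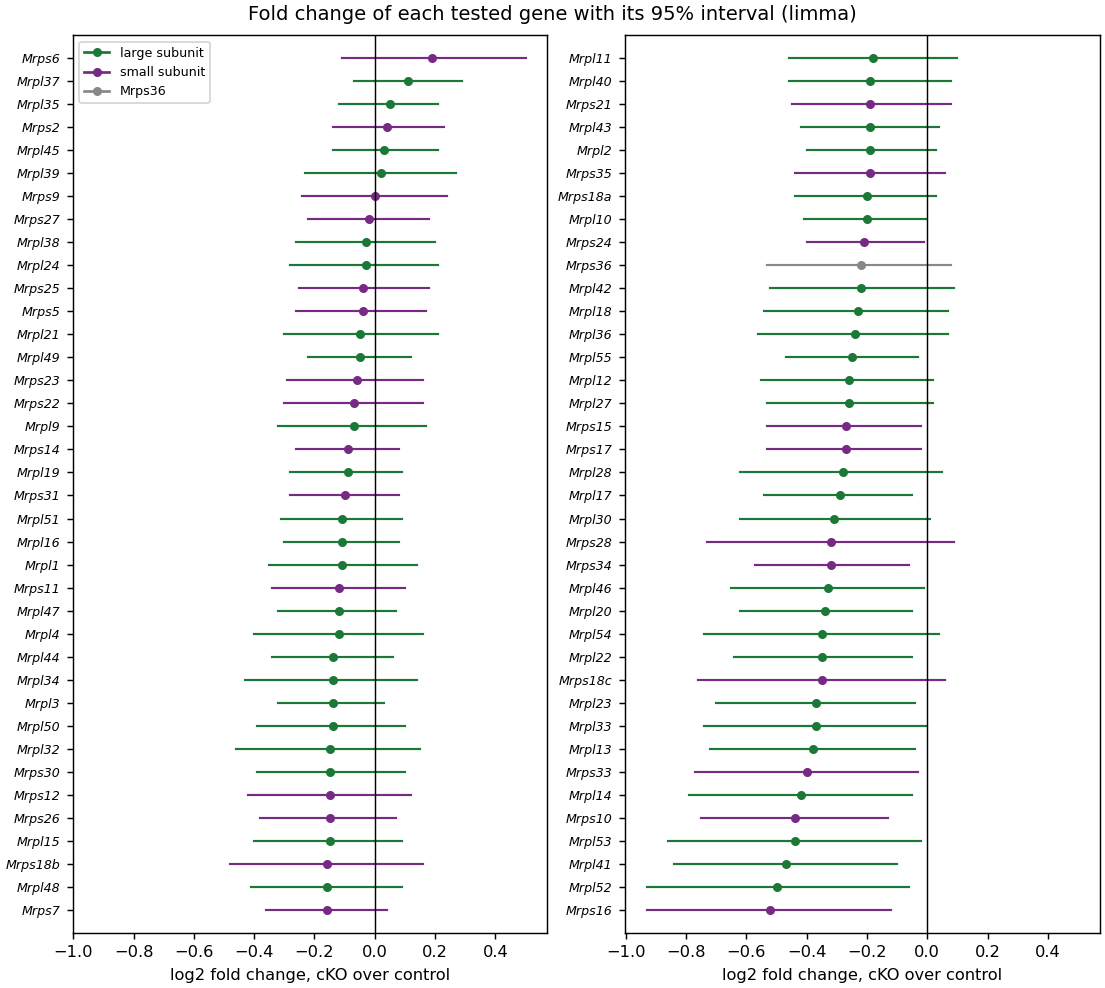
Fitted log2 fold change, cKO over control, with its 95% interval for each of the 76 tested genes, ordered from the highest at the top left to the lowest at the bottom right and coloured by ribosomal subunit. The points run from 0.19 (Mrps6) to -0.52 (Mrps16), and 69 of 76 lie below 0.

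Among the members, the large subunit comprises the Mrpl products together with those of Mrps30 and Mrps18a, which structures place there. Over its 49 genes the median was -0.19 (log2 fold change), with 45 below 0, 12 lower at an unadjusted p under 0.05 and 0 called. The 26 genes of the small subunit had a median of -0.16, with 23 below 0, 7 lower at an unadjusted p under 0.05 and 0 called. Of all tested genes, 50.1% lay below 0, 5.13% were lower at an unadjusted p under 0.05 and 0.834% were called (limma). Mrps36 was counted in neither. Within the large subunit the 29 genes with bacterial homologues had a median of -0.19 and the 20 mitochondria-specific genes -0.18. Within the small subunit the medians were -0.17 for 16 homologues and -0.13 for 10 mitochondria-specific genes. These 4 classes overlapped widely, and their differences were not tested.

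The genes at the low end came from each subunit. Mrps16, a conserved small-subunit protein whose loss in humans causes fatal lactic acidosis with brain malformation, had 120, 233 and 260 normalised reads as the lowest, median and highest of the cKO libraries, against 204, 307 and 425 in the controls. Control libraries 3 to 6 lay above every cKO library, and controls 1 and 2 lay inside the cKO range. Its log2 fold change was -0.52 (SE 0.19, limma adjusted p = 0.438), and it was -0.33 without cKO library 4 and -0.32 without control libraries 4 and 5. Mrpl52, a mitochondria-specific large-subunit protein, had 148, 194 and 247 in the cKO, against 167, 286 and 493 in the controls, with controls 1 and 2 again inside the cKO range. Its log2 fold change was -0.50 (SE 0.21, limma adjusted p = 0.476), and the difference was smaller than the control SD of 120 normalised reads (n = 6). Without control libraries 4 and 5 the log2 fold change of Mrpl52 was -0.20. Mrpl41 is a mitochondria-specific protein of the large subunit. It had 400, 537 and 623 normalised reads in the cKO, against 475, 685 and 1050 in the controls. Its log2 fold change was -0.47 (SE 0.17, limma adjusted p = 0.448), and control libraries 4 and 5, at 1024 and 1050, held the 2 top values. Without them the log2 fold change of Mrpl41 was -0.20. Mrps10, a conserved small-subunit protein, had 93.7, 135 and 157 normalised reads in the cKO, against 136, 169 and 236 in the controls. Control libraries 4, 5 and 6 lay above every cKO library and 3 cKO libraries below every control. The fold change of Mrps10 was -0.44 (SE 0.15), with the smallest p of the members (limma adjusted p = 0.368), and it was -0.27 without control libraries 4 and 5.

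At the other end, Mrps6, a small-subunit homologue of a bacterial protein, had 977, 1367 and 1847 normalised reads in the cKO, against 934, 1156 and 1511 in the controls. The log2 fold change was 0.19 (95% interval -0.11 to 0.50), and cKO library 4 alone lay above all controls. Without cKO library 4 it was 0.08, and with the length slope of each library removed 0.32. Mrps6 overlaps Slc5a3, an inositol transporter gene on the same strand, so reads may be shared between them. Slc5a3 averaged 982 ± 259 normalised reads in the cKO and 790 ± 245 in the controls (SD, n = 6 each), and its limma adjusted p was 0.560 at a log2 fold change of 0.32. Mrpl37, a large-subunit protein without bacterial homologue, had 472, 553 and 589 in the cKO, against 443, 506 and 573 in the controls, a log2 fold change of 0.11 (95% interval -0.07 to 0.29). Mrpl35 (0.05) and Mrps2 (0.04) completed the upper 4, with groups that overlapped over most of their range. Mrps2, whose variants in humans cause hearing loss, had 369, 429 and 481 in the cKO, against 354, 439 and 460 in the controls.

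**Figure D2:**
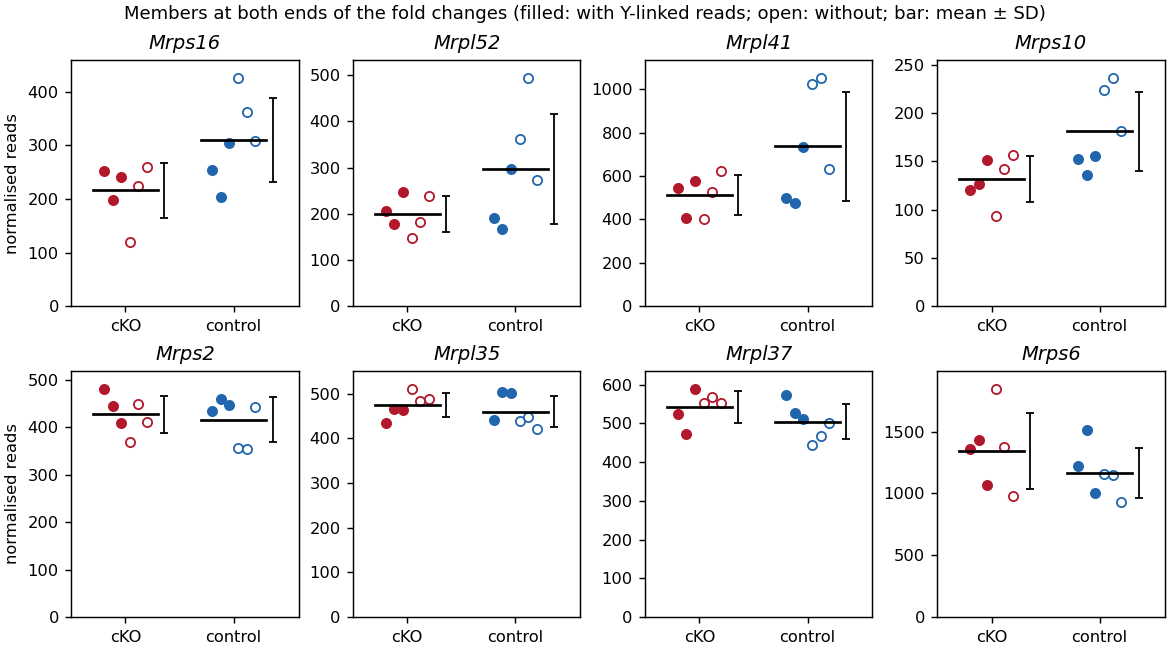
Normalised reads in each library for the 4 genes with the lowest (top row) and the 4 with the highest (bottom row) fold change, cKO at the left of each panel and control at the right. Filled points are libraries with Y-linked reads and open points those without, horizontal bars are means and error bars are 1 SD (n = 6). In the top row the highest values are those of control libraries without Y-linked reads, up to 425 for Mrps16 and 1050 for Mrpl41.

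No gene fixed for its known role was called, and of these genes only Mrpl12 had a log2 fold change below the members' median of -0.17. Mrpl12 is the homologue of the bacterial ribosomal stalk protein and has been reported to bind the mitochondrial RNA polymerase. It had 618, 749 and 815 normalised reads in the cKO, against 604, 877 and 1225 in the controls. Its log2 fold change was -0.26 (SE 0.14, limma adjusted p = 0.525), and 4 controls lay above every cKO library. Without control libraries 4 and 5 it was -0.07, and with libraries weighted by their quality -0.14. Mrps5, whose expression has been linked to lifespan in mice, averaged 251 ± 29.9 in the cKO and 258 ± 25.0 in the controls (SD, n = 6 each). Its log2 fold change of -0.04 had a 95% interval of -0.26 to 0.17. Mrps12, a protein of the decoding centre, averaged 407 ± 75.0 in the cKO and 447 ± 49.4 in the controls. Its log2 fold change was -0.15 (limma adjusted p = 0.650), and cKO library 4 held 257 normalised reads while the other 5 cKO libraries held 414 to 456. Without that library the log2 fold change of Mrps12 was -0.02.

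Levels differed far more between genes than between genotypes. Per kilobase of annotated transcript, the highest were Mrps6, with 1588 ± 363 normalised reads in the cKO and 1375 ± 238 in the controls (SD, n = 6 each), then Mrps34 and Mrpl41. The level of Mrps6, and so its rank, may include reads of Slc5a3, which it overlaps on the same strand. Mrps34, a small-subunit protein mutated in Leigh syndrome in humans, had 884 ± 73.2 in the cKO and 1125 ± 259 in the controls. The log2 fold change of Mrps34, -0.32, was -0.21 without control libraries 4 and 5. Mrpl41 had 662 ± 117 in the cKO and 949 ± 324 in the controls, so that its control values overlapped those of Mrps34. The lowest were Mrpl47, with 45.2 ± 3.77 in the cKO and 49.2 ± 3.96 in the controls, Mrps36 with 51.3 ± 11.8 in the cKO and 60.1 ± 12.8 in the controls, and Mrps5 with 56.0 ± 6.68 in the cKO and 57.6 ± 5.57 in the controls. Mrps36 and Mrps5 did not differ beyond their spread. Mrps36 was first named as a ribosomal protein and was later assigned to the 2-oxoglutarate dehydrogenase complex. Its level without regard to length, 36.0 ± 8.28 in the cKO and 42.1 ± 9.01 in the controls, was the lowest of the tested members. The level per kilobase depends on the annotated transcript, which may be longer than the form present in cortex. The 4 pseudogenes were listed at 0 in all 12 libraries, where a count of 0 allows up to 3 reads per library, and entered no test. Members with close copies elsewhere, such as these parent genes, may share reads with them.

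The members were then compared between single libraries. For each library, the median over the 76 members of the deviation from each gene's own mean was -0.24 to 0.01 in the cKO and -0.19 to 0.35 in the controls (log2 scale), while the median of all tested genes lay between 0.00 and 0.01. The 3 highest medians were those of control libraries 5 (0.35), 4 (0.21) and 3 (0.20), and the lowest were cKO library 2 (-0.24) and control library 2 (-0.19). Of the 76 members, 60 had their highest value in control library 3, 4 or 5, 43 of them in control library 5. Of all tested genes, control library 3 held the highest value for 8.04%, control library 4 for 14.5% and control library 5 for 12.6%. The summed level of the members was 27857 to 32423 normalised reads in the cKO and 28590 to 41071 in the controls. The members spread widely within cKO library 4, where the SD of the deviations was 0.36, against 0.12 to 0.15 in the other 5 cKO libraries. In that library Mrps16 had a deviation of -1.06 from its mean and Mrps6 of 0.59. The lowest value of 24 members lay in cKO library 4, of 18 in cKO library 2 and of 15 in control library 2. The share of all tested genes lowest in each library was not taken, so these counts have no background. All tested genes also spread most in cKO library 4 (SD 0.42). Control libraries 4 and 5, with member SDs of 0.29 and 0.30, followed.

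**Figure D3:**
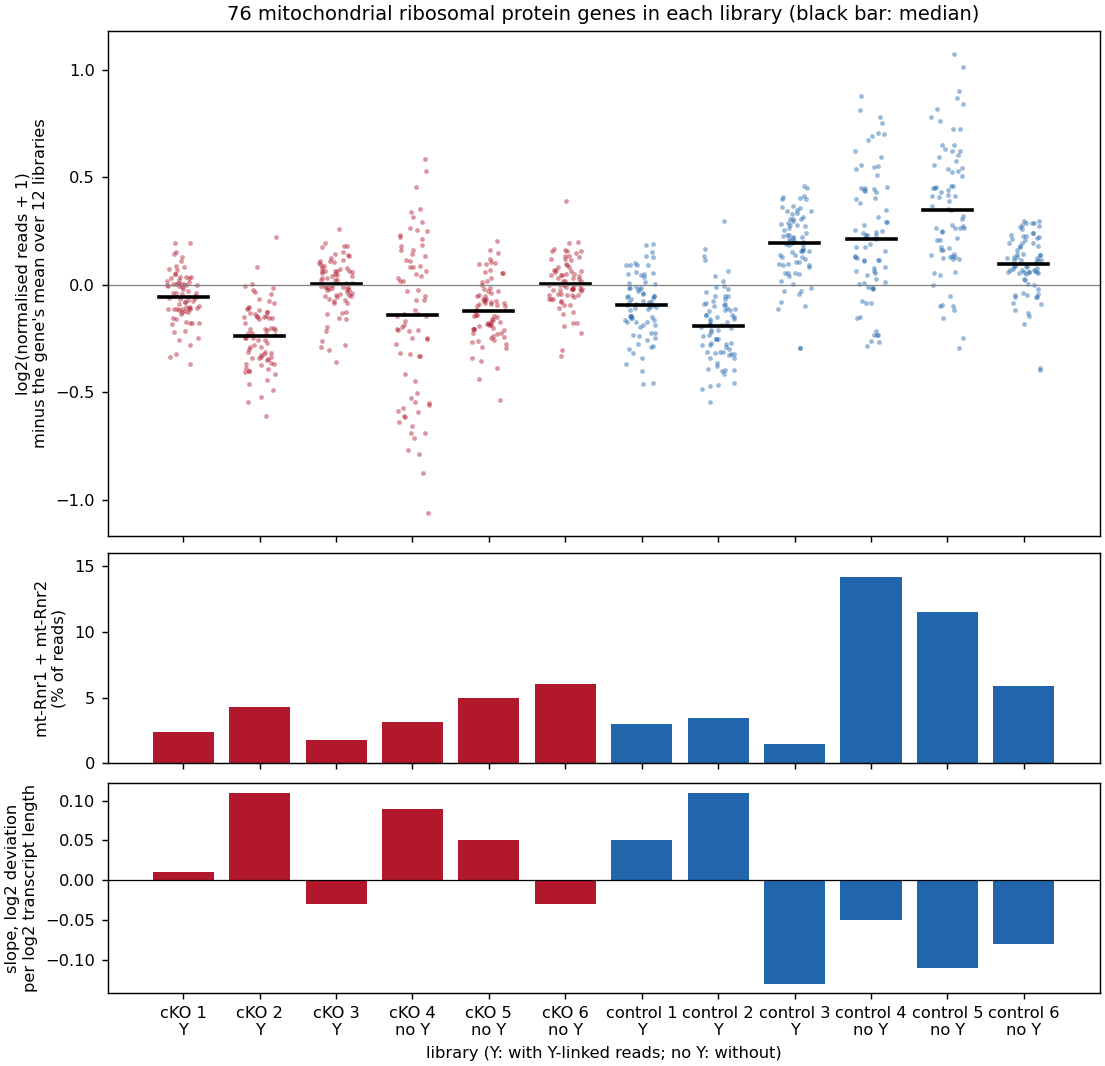
Top: deviation of each of the 76 genes from its own mean on the log2 scale in each library, cKO in red and control in blue, with the median as a black bar. Middle and bottom: share of reads on mt-Rnr1 and mt-Rnr2, and slope of the deviation of all tested genes on log2 transcript length. Control libraries 3, 4 and 5 have the highest medians (0.20, 0.21 and 0.35), and their slopes are -0.13, -0.05 and -0.11.

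The genotype difference was also taken within each of the 2 sets of libraries. The difference between the sets was called for 0 members and for 0 of all 14397 tested genes (limma). Among the 3 cKO and 3 control libraries with Y-linked reads, the median log2 fold change was -0.05, with 63 of 76 members below 0 (82.9%, against 51.9% of all tested genes). Among those without Y-linked reads it was -0.31, with 66 below 0 (86.8%, against 50.8%). An unadjusted p under 0.05 with a lower level in the cKO was found for 0 members in the first set and 35 (46.1%) in the second, against 0.41% and 12.1% of all tested genes. The adjusted p was under 0.05 for 0 members in each set, against 0.25% and 0.493% of all tested genes. The difference between the sets had an unadjusted p under 0.05 for 10 members (13.2%, against 8.77% of all tested genes), and its smallest adjusted p was 0.562 (limma). edgeR called 0 members for this difference, with 8 at an unadjusted p under 0.05. The share of all genes was not taken for edgeR here, so these counts have no background. For Mrpl52 the values were -0.02 in the set with Y-linked reads and -0.97 in the other (SE 0.24 each), Mrpl14, a conserved large-subunit protein, -0.01 and -0.83, and Mrps16 -0.13 and -0.92. The second set holds control libraries 4 and 5. Without these 2 libraries the median over all members was -0.11, 64 of 76 lay below 0 (51.1% of all genes tested there), 0 were called (0.668% of all genes) and 0 had an unadjusted p under 0.05 (4.12% of all genes).

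**Figure D4:**
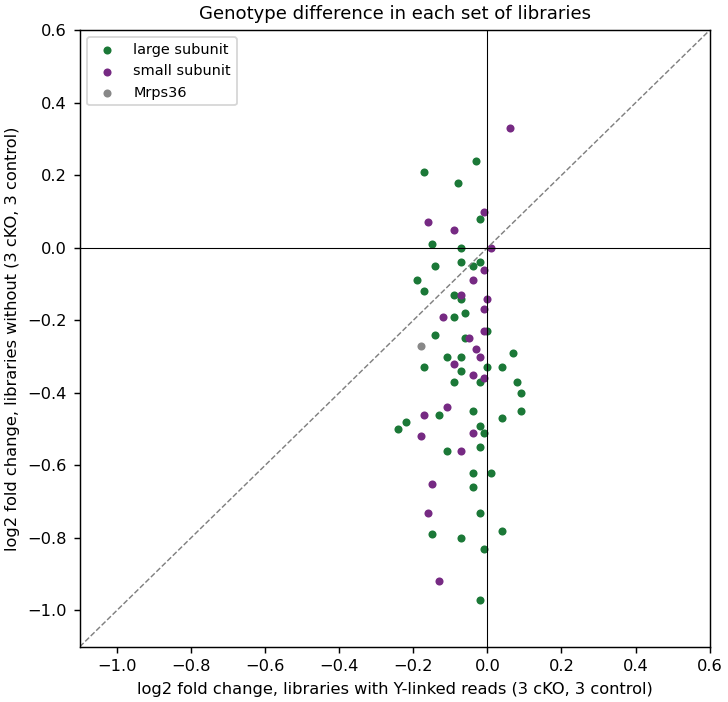
Log2 fold change, cKO over control, of each tested gene among libraries with Y-linked reads (horizontal axis) and among those without (vertical axis), with the line of equal values dashed. The points span -0.24 to 0.09 horizontally and -0.97 to 0.33 vertically.

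The difference was larger for members under 1000 bases than for longer ones, and over all tested genes it moved with transcript length through the 3 classes. The members are short, with a median annotated transcript of 1284 bases against 3088 for all tested genes. The 25 members under 1000 bases had a median of -0.31, where all 806 tested genes of that length had -0.25 and 87.5% of them lay below 0. From 1000 to under 2000 bases the medians were -0.13 for 28 members and -0.08 for 2756 tested genes. From 2000 bases the medians were -0.14 for 23 members, of which 19 lay below 0, and 0.03 for 10572 tested genes, of which 42.0% lay below 0. With control libraries 4 and 5 included, the members' medians were thus close to each other in the classes from 1000 bases up (-0.13 and -0.14). Without control libraries 4 and 5 the members' medians in the 3 classes were -0.15, -0.11 and -0.05, and those of all tested genes -0.10, -0.06 and 0.02. The slope of each library's deviations on log2 length ran from -0.03 to 0.11 in the cKO and from -0.13 to 0.11 in the controls. Once the slope was removed from each library, the members' median was -0.13 with 61 of 76 below 0, and 8 had an unadjusted p under 0.05, against 9.53% of all genes in that fit. The part of length or of the mitochondrial rRNA share in the difference was not tested.

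**Figure D5:**
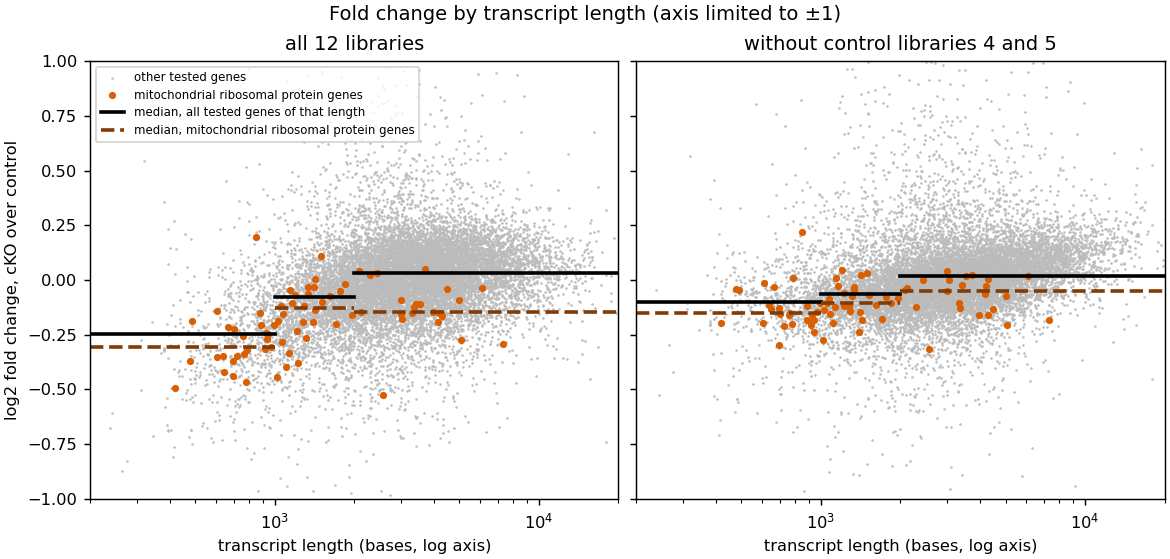
Log2 fold change, cKO over control, against annotated transcript length (log axis) for the 76 genes (orange) and other tested genes (grey), with all libraries (left) and without control libraries 4 and 5 (right). Solid lines are medians of all tested genes under 1000 bases, from 1000 to under 2000 and from 2000 bases, and dashed lines those of the 76 genes. Under 1000 bases the left panel has -0.31 for the 76 genes and -0.25 for all.

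The RNAs and proteins that join these products in the ribosome were looked at next. mt-Rnr1 had 26866, 130708 and 194154 normalised reads as the lowest, median and highest of the cKO libraries, against 17616, 150760 and 641271 in the controls. mt-Rnr2 had 271315, 523748 and 865260 in the cKO, against 218414, 664143 and 2161961 in the controls. For each RNA the groups overlapped, and control libraries 4 and 5 held the 2 highest values. Their limma adjusted p were 0.639 and 0.558, and their log2 fold changes of -0.67 and -0.53 were -0.03 and -0.06 without those libraries. Library preparation included depletion of ribosomal RNA, whose part in these values was not tested. Of 7 subunits whose symbols fall outside the rule, 6 lay below 0 and 0 were called, with a median of -0.14. Chchd1, a small-subunit protein, had 173, 247 and 268 normalised reads in the cKO, against 203, 266 and 582 in the controls, and control libraries 4 and 5 held the 2 highest values. Its fold change was -0.46 on the log2 scale (limma adjusted p = 0.516) and -0.04 without those libraries. Mrp63, a large-subunit protein, had 243, 339 and 394 in the cKO, against 338, 427 and 588 in the controls, with a limma adjusted p of 0.432 at a log2 fold change of -0.40 (-0.20 without control libraries 4 and 5). Dap3, the GTP-binding protein of the small subunit, averaged 1138 ± 41.8 in the cKO and 1129 ± 119 in the controls (SD, n = 6 each). The values of Ict1, which releases stalled ribosomes (-0.15), Gadd45gip1 (-0.14), Aurkaip1 (-0.13) and the pentatricopeptide protein Ptcd3 (-0.04) lay between.

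Other genes of mitochondrial gene expression, from lists chosen by function, had medians closer to 0 with all libraries included. limma called 0 of these genes, against 0.834% of all tested genes. At an unadjusted p under 0.05, 1 of them (Mtrf1) was lower, against 5.13% of all tested genes. Of 23 tested assembly factors 14 lay below 0, with a median log2 fold change of -0.05 and a range from -0.20 (the GTPase Gtpbp10) to 0.11 (the rRNA methyltransferase Mrm1). The 13 translation factors had a median of -0.01, with 7 below 0, from -0.29 (the release factor gene Mtrf1) to 0.19 (the elongation factor gene Tufm). The 17 mitochondrial aminoacyl-tRNA synthetases had a median of -0.02, with 9 below 0. The 9 tested genes of mitochondrial transcription, replication and mRNA stability had a median of 0.04, with 3 below 0. The median transcript of these 4 lists was 1617, 2588, 3336 and 3488 bases, longer than that of the ribosomal proteins. A pair of lists of short transcripts shared the direction of the mitochondrial ribosomal proteins: the 76 tested cytosolic ribosomal protein genes had a median of -0.38 with 75 below 0, and the 73 nuclear genes of oxidative phosphorylation -0.27 with 68 below 0. limma called 0 genes of each, with 43 and 23 lower at an unadjusted p under 0.05, against 5.13% of all tested genes. Without control libraries 4 and 5 their medians were -0.11 and -0.08, beside -0.11 for the mitochondrial ribosomal proteins. In libraries with Y-linked reads the 3 medians were -0.02, -0.05 and -0.05. There the assembly factors had -0.08, the translation factors -0.04, the synthetases 0.01 and the transcription list -0.01. These 4 medians were -0.06, -0.03, -0.02 and 0.01 without control libraries 4 and 5. None of these lists was tested against another.

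Many members face another gene. Of the 67 with a promoter window, 26 (38.8%) had the start of a gene on the opposite strand within 1000 bases upstream or an overlap of up to 50 bases, against 19.2% of tested genes with a window. The partners include further genes of mitochondrial function. Mrps12 shares its promoter region with Sars2, the mitochondrial seryl-tRNA synthetase, whose start lies 147 bases away. Sars2 averaged 128 ± 13.8 normalised reads in the cKO and 137 ± 19.7 in the controls (SD, n = 6 each). On the log2 scale its difference was -0.09, beside -0.15 for Mrps12. Mrps11 and Mrpl46, a pair from the small and the large subunit with starts 42 bases apart, had log2 fold changes of -0.12 and -0.33, and neither was called. Without control libraries 4 and 5 that of Mrpl46 was -0.12. Mrpl49 (-0.05) faces Fau, which encodes a cytosolic ribosomal protein fused to a ubiquitin-like domain and had -0.57 on the same scale (limma adjusted p = 0.475, and -0.26 without control libraries 4 and 5). The 20 tested partners that are not members had a median of -0.06, with 13 below 0 and 0 called, while the members they face had -0.16. Members with and without the ETS letters had medians of -0.19 and -0.15, those with and without the NRF1 letters -0.15 and -0.18, and those with and without the YY1 letters -0.18 and -0.16. These were not tested.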

How the data were processed

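The deposited table gives, per the file headers, DESeq2-normalised values made by the authors (a signal per gene and library), with the log2 fold changes, their errors, the test statistic (a score) and p-values of the authors. Tools in the submitters' processing notes are STAR, Bowtie, bedtools and Trim Galore, and the build is mm9. The read counter and its use of strand are not given in the sources used here. Overlapping and antisense genes may thus share reads. Per the labels' protocols, 250 ng of total RNA per library went through rRNA depletion and a directional kit. Every deposited value was a whole multiple of 1 step per library within 0.01 reads (100% of values above 0), which gave the reads used for edgeR and DESeq2. No 2 libraries of a genotype were alike within sampling noise: over 30 pairs, chi-square divided by its degrees of freedom was 7.22 to 170.

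Log2(value + 1) was tested in limma (trended variance, two-sided). The model held genotype and a term for Y-linked reads (summed over Uty, Kdm5d, Ddx3y and Eif2s3y). Genes needed a mean of 10 normalised reads or more, and p-values were adjusted by Benjamini-Hochberg over all of them. Fold changes on this scale understate those of low genes. The difference between the sets came from a model of 4 groups. The genotype fits of limma, edgeR and DESeq2 were tried on simulated counts in which 200 genes were changed. The outcome is not reported here. Genes were drawn independently of each other, so shifts shared by many genes within a library were not simulated. The members, lists and tests were chosen with earlier results of these data known. Named were the 4 lowest and 4 highest fold changes, the 3 highest and 3 lowest levels per length, Mrpl12, Mrps5, Mrps12, the untested members, subunits outside the rule and both rRNAs. Mrpl14, Mrps11, Mrpl46, Mrpl49, their partner genes, and the genes at the ends of the other lists were named after their values were seen. Lengths were those of the longest principal transcript in GENCODE M21 (GRCm38), found for 98.2% of tested genes. Some markers of the cell type lists are not reported here. Alternatives are given in the closing section. Versions were R 4.3.3, limma 3.58.1, edgeR 4.0.16 and DESeq2 1.42.0.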

Additional observations from a re-analysis of the deposited data

Results flagged for a closer look

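Among the members named above, the mitochondrial rRNAs, the subunits outside the symbol rule and the median deviation per library, each group of 6 libraries was searched for a value far from the other 5. Mrps12 in cKO library 4 stood apart, with 257 normalised reads where the nearest other cKO library had 414. The gap made up 0.791 of the range of the group, above Dixon's 95% critical value for 6 samples. Of 58 groups searched this was the 1 found, and chance alone gives about 1 in 20.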

How the results depend on the processing

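No member was called under any of the 25 alternatives, and the members' median log2 fold change stayed below 0, between -0.18 and -0.11 under the settings that keep every library or drop control libraries 4 and 5 together, and between -0.23 (without control library 2) and -0.14 (without control library 3 or 5) with single libraries left out. Members below 0 numbered 61 to 71. The number at an unadjusted p under 0.05, with the share of all genes in the same fit, was 4 without control library 3 (7.01%) or 5 (5.51%), 6 without cKO library 2 (7.80%), 7 without control library 4 (6.15%) or cKO library 5 (6.78%) and 10 without cKO library 4 (7.79%). It was 8 with array weights (9.10%) or the length trend removed (9.53%), 0 without control libraries 4 and 5 (4.12%) and 33 without control library 2 (16.9%), so the share of all genes moved as well. With array weights, Mrps16 had a log2 fold change of -0.30, Mrpl52 -0.31 and Mrpl41 -0.27. With the length trend removed, Mrpl52 had -0.30, Mrps34 -0.20 and Mrps36 -0.08. Over all genes, 120 calls among 14397 genes became 58 among 12299 where a mean of at least 50 normalised reads was required. With single libraries left out the calls numbered 97 to 123. Mrps2 had a log2 fold change of -0.04 without control libraries 4 and 5, and Mrps5 ran from -0.10 (without control library 4) to 0.01 (without cKO library 3) with single libraries left out. Whether the column numbers pair the libraries is not known. Deviations of same-numbered libraries correlated at 0.0911 to 0.497 over the 6 numbers, and at -0.0976 to 0.48 within the sets with and without Y-linked reads. For cKO libraries 1, 2, 3 and 6 the most correlated control had the same number. For cKO libraries 4 and 5 it was control library 5 and 6. With a replicate block for the column numbers, 0 members and 118 of all genes were called, and 24 members had an unadjusted p under 0.05, against 12.6% of all genes. The difference between library sets was called for 0 members under 19 alternatives added after the data had been seen. In the main fit it was called for 0 of all 14397 tested genes. Depth limits Mrps36 most, at about 39.0 normalised reads.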
